A study of Mus musculus with 6 samples.

Results

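The genes that encode the best known enzymatic targets of lithium and their close partners were followed in a mouse macrophage line cultured on zinc alloys with and without lithium. They were taken by gene name from the deposited count table and are 9 of its 54532 genes. The set holds the glycogen synthase kinase 3 genes Gsk3a and Gsk3b, the beta-catenin gene Ctnnb1, the GSK3-binding protein genes Frat1 and Frat2, and the phosphatase genes Impa1, Impa2, Inpp1 and Bpnt1. RAW264.7 is an established line of mouse macrophage-like cells. The cells were grown for 3 days on CaP Zn0.8Mn0.1Li, CaP Zn0.8Mn or CaP Zn alloy scaffolds, with 2 RNA-seq libraries of polyA RNA for each. Zinc and CaP were common to all 3 scaffolds, manganese to the first and second, and lithium was named in CaP Zn0.8Mn0.1Li alone. No library of cells grown off a scaffold was used here, so the lithium alloy was read against the other alloys only. No label stated that the 2 libraries of an alloy came from separate cultures, so p-values measured only the spread between libraries, which may be technical.

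GSK3 alpha and GSK3 beta are serine/threonine kinases that are active in resting cells. Together with APC, axin and casein kinase 1 they mark beta-catenin for degradation, and Wnt or Akt signalling restrains them. Lithium inhibits both kinases, in part by competing with magnesium, and it also inhibits a family of magnesium-dependent phosphatases that recycle inositol phosphates (IMPA1, IMPA2, INPP1) and the by-product of sulfation reactions (BPNT1). These are effects on enzyme activity and protein stability, whereas the libraries measured RNA.

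The promoters of the 2 kinase genes are shown because the balance between the kinases is followed in every library below. Each window runs from 250 bases before to 50 bases after the annotated start, in RefSeq's annotation of GRCm38.p6. Gsk3a lies on the minus strand (chr7:25237802-25238101), and Gsk3b on the plus strand (chr16:38088751-38089050). Capitals in the Gsk3a sequence mark a TCF/LEF motif read on the opposite strand, TTCAAAG, and a GC box read on the opposite strand, CCGCCC.
Gsk3a promoter: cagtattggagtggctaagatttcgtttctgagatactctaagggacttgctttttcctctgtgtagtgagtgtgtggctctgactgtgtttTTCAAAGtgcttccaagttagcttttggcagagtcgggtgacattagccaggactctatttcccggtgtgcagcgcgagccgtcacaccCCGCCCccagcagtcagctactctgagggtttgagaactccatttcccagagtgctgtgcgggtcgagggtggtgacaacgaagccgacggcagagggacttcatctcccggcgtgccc
Gsk3b promoter: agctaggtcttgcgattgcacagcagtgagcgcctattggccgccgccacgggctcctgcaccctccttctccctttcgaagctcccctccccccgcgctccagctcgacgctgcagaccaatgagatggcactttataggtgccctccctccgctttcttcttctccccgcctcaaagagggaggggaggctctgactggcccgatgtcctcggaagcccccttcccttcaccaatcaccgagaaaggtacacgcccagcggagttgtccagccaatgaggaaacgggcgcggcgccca
The search covered both strands. It used CTTTGAA, in which each of the last 2 letters could be A or T, a sequence bound by the TCF/LEF partners of beta-catenin. It also used GGGCGG, the GC box bound by Sp1. The Gsk3a window held 1 match to each, with first bases at -158 for the TCF/LEF match and -69 for the GC box, counted from the start. The Gsk3b window held neither, and none of the promoters of Ctnnb1, Frat1, Frat2, Inpp1 and Bpnt1 held a TCF/LEF match. Among 32851 promoters of the same length, 16.9% held a TCF/LEF match and 35.7% a GC box. The GC content was 54.3% for Gsk3a, with 14 CpG dinucleotides, and 63.0% for Gsk3b, with 21. A match is a match of letters only, and promoters of Impa1 and Impa2 were not used here.

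Library totals were 14944070 to 17709290 counts, and 18334 to 18820 genes had at least 1 count. At this depth 3 counts, the limit that a count of 0 allows, equalled 0.161 to 0.198 CPM, the count scaled to a fixed library total and by TMM. One library stood apart from the other 5. In CaP Zn0.8Mn replicate 1, 7.88% of counts came from mitochondrial genes, against 1.82% to 2.15% in the others, and 88.7% of 7227 well-expressed genes (at least 20 CPM) lay outside the range of the other 5 libraries. Tests that include it are given with and without it. It was singled out from these same data, so a smaller spread without it follows from that choice. Without it, CaP Zn0.8Mn replicate 2 stood alone for its alloy and was assumed to vary like the libraries of the other alloys. The macrophage label was met by 9 of 10 markers, Mertk staying at 14 counts or fewer. The summed level of all 10 was 15323 and 15916 CPM on CaP Zn0.8Mn0.1Li, 9597 and 16733 CPM on CaP Zn0.8Mn, and 11091 and 14306 CPM on CaP Zn. Of 6 markers of epithelium and endothelium 5 were at 0 in every library (Epcam, Krt8, Krt18, Cdh1, Cdh5), and Pecam1 had counts. Of 8 fibroblast or osteoblast markers 4 were at 0 in every library (Col1a2, Col3a1, Pdgfra, Dcn). Col1a1, Runx2, Sp7 and Bglap had counts, and 1 of the 8 reached 5 CPM. The sums of these 2 lists ranged from 0 to 0.258 and from 7.46 to 17.4 CPM. The sum of 6 osteoclast markers ranged from 77.3 to 180.2 CPM, and each of the last 2 sums was lowest in CaP Zn0.8Mn replicate 1. In bulk samples fewer cells of a type and less RNA per cell cannot be told apart.

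All 9 genes were detected and passed the filter on low counts. Per base of transcript, on the authors' FPKM scale, Ctnnb1 and Impa2 were the most abundant and Frat1 the least. In the CaP Zn0.8Mn0.1Li libraries the levels were 34.3 and 38.4 FPKM for Ctnnb1, 36.3 and 39.5 for Impa2, 26.4 and 24.8 for Gsk3a, 11.4 and 11.3 for Bpnt1, 9.77 and 9.14 for Gsk3b, 8.52 and 9.38 for Impa1, 2.94 and 3.87 for Frat2, 1.41 and 1.21 for Inpp1, and 0.0918 and 0.0927 for Frat1. Ctnnb1 and Impa2 overlapped across these 2 libraries, as did Gsk3b and Impa1, so neither pair has an order beyond its spread, while each of the other steps was larger than the spread. Per base, Gsk3a was therefore the more abundant kinase transcript in these libraries and Impa2 the more abundant inositol monophosphatase transcript. By counts, which take no account of length, Gsk3b was above Gsk3a there, with 1601 and 1484 against 1275 and 1189. The kinase order thus depends on the lengths used, 9831 bases for Gsk3b and 2900 for Gsk3a. The authors computed FPKM for Impa2 with a length of 1661 bases, while its merged exons in GENCODE M21 span 5367, so its place in the order depends on that length. The other 8 lengths equalled the merged exons.

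**Figure D1:**
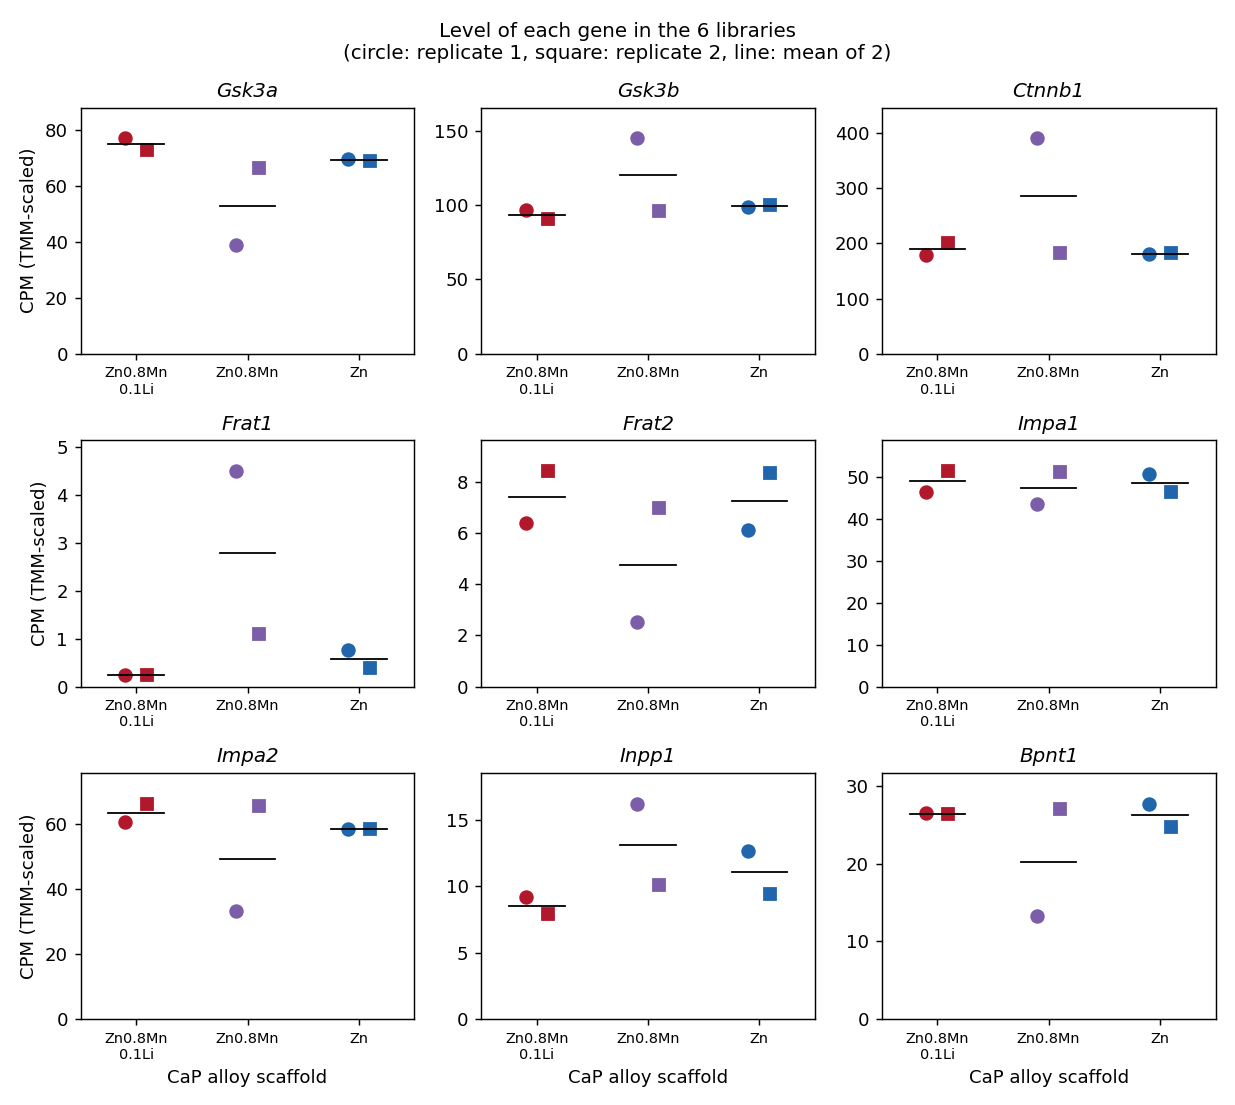
Level of each of the 9 genes in TMM-scaled CPM (vertical axes, each from 0) in the 2 libraries of each alloy, with circles for replicate 1, squares for replicate 2 and a line for the mean. CaP Zn0.8Mn replicate 1 (purple circle) is the highest or the lowest library in every panel. Leaving it aside, both CaP Zn0.8Mn0.1Li libraries lie above the rest for Gsk3a, and below for Frat1 and Inpp1. Of all genes tested, 9.29% lie above and 9.7% below in this way. For the remaining genes the CaP Zn0.8Mn0.1Li libraries overlap the rest, for example at 46.6 and 51.4 CPM for Impa1.

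No member passed the test against the other alloys. In CaP Zn0.8Mn0.1Li against the mean of CaP Zn0.8Mn and CaP Zn, 5 members had higher and 4 lower values, with a median log2 fold change of 0.03 against 0.0021 over all 13156 genes tested, and 0 of 9 members were called at an adjusted p under 0.05 (edgeR's quasi-likelihood test, Benjamini-Hochberg over all genes). The background was 0% of genes called, with 71 genes (0.54%) and 1 member, Frat1, at an unadjusted p under 0.05. Against CaP Zn0.8Mn alone, 5 members were higher and 4 lower (median 0.05, all genes -0.0019), 0 were called beside 0% of genes, and Frat1 was again the 1 member among 316 genes (2.4%) at an unadjusted p under 0.05. Against CaP Zn alone, 6 members were higher and 3 lower (median 0.01, all genes 4.74e-05), 0 were called beside 0% of genes, and 0 members were among the 29 genes (0.22%) at an unadjusted p under 0.05. The 3 comparisons share the CaP Zn0.8Mn0.1Li libraries, and the comparison with the mean shares its other libraries with both single comparisons.

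**Figure D2:**
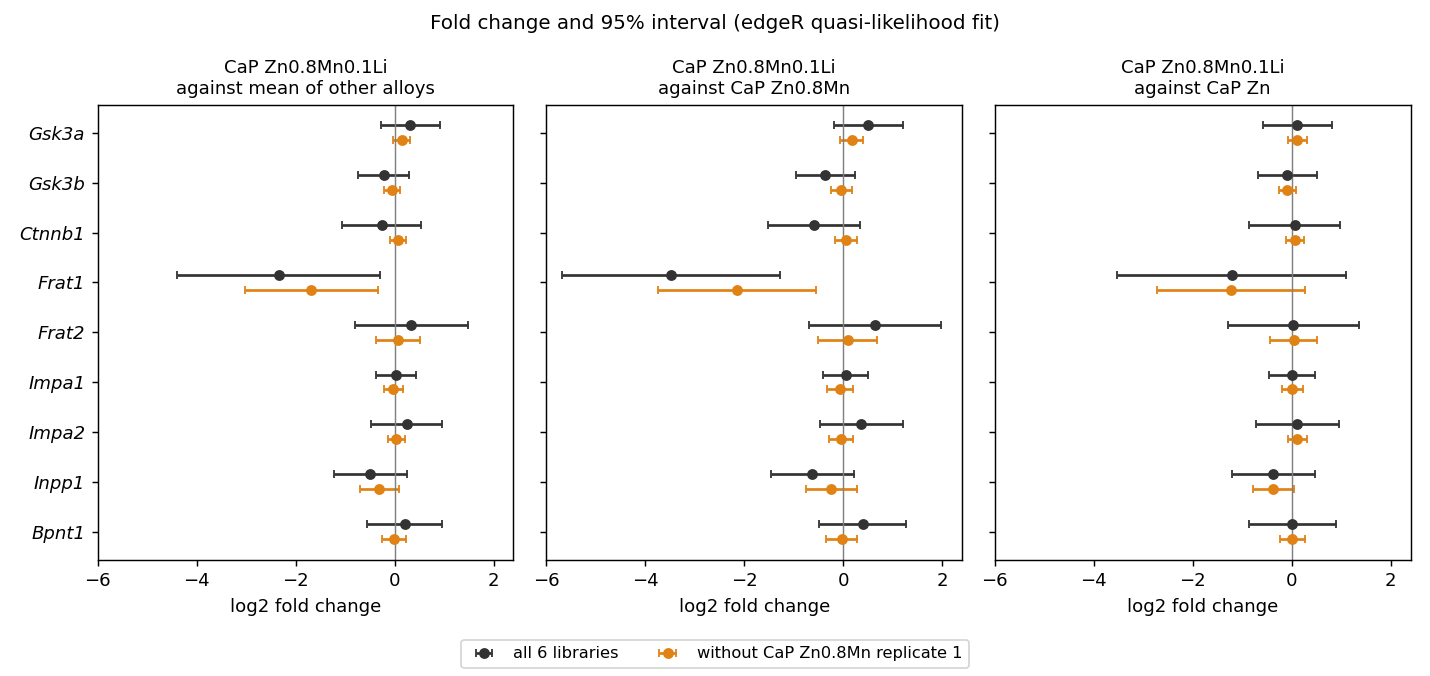
Log2 fold change of each gene in CaP Zn0.8Mn0.1Li against the mean of the other alloys, against CaP Zn0.8Mn and against CaP Zn (horizontal axes), with 95% intervals from the edgeR fit to all 6 libraries (dark) and without CaP Zn0.8Mn replicate 1 (orange). Every interval except those of Frat1 in the first and second panels includes 0. Leaving out the library narrows the intervals, for Gsk3a in the first panel to a fold of 0.981 to 1.25 from 0.820 to 1.88. CaP Zn0.8Mn replicate 2 then stands alone for its alloy, so the narrower intervals rest on the spread within CaP Zn0.8Mn0.1Li and within CaP Zn.

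Gsk3a (ENSMUSG00000057177, chromosome 7, 25228258 to 25237851, minus strand) encodes GSK3 alpha. It was at 76.9 and 72.6 CPM on CaP Zn0.8Mn0.1Li, 38.8 and 66.3 CPM on CaP Zn0.8Mn, and 69.3 and 68.7 CPM on CaP Zn. Both lithium libraries lay above all 4 others, as they did for 838 genes (6.37%), and the lowest library was CaP Zn0.8Mn replicate 1. The log2 fold change against the mean of the other alloys was 0.31 (SE 0.24, edgeR adjusted p = 0.935), and without that library 0.14 (SE 0.08, edgeR adjusted p = 0.998). Antisense transcript 9130221H12Rik, with 44 to 55 counts, overlaps 28.3% of the exon bases, and because the sources used here do not state whether counting used strand, its reads cannot be told apart from those of Gsk3a there.

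Gsk3b (ENSMUSG00000022812, chromosome 16, 38089001 to 38246084, plus strand) encodes GSK3 beta, the isoform most often studied in beta-catenin turnover. Its level was 96.5 and 90.6 CPM on CaP Zn0.8Mn0.1Li, 145 and 95.9 CPM on CaP Zn0.8Mn, and 98.9 and 100.1 CPM on CaP Zn. The lithium libraries overlapped the rest, and CaP Zn0.8Mn replicate 1 was the highest. Against the mean of the others its log2 fold change was -0.23 (SE 0.21, edgeR adjusted p = 0.935), and -0.06 (SE 0.08, edgeR adjusted p = 0.998) without that library. Against CaP Zn the 95% interval of the fold was 0.623 to 1.42 with all 6 libraries and 0.833 to 1.06 without CaP Zn0.8Mn replicate 1.

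The balance between the kinases was read from the FPKM ratio of Gsk3b to Gsk3a in each library. It was 0.370 and 0.368 on CaP Zn0.8Mn0.1Li, 1.10 and 0.427 on CaP Zn0.8Mn, whereas the CaP Zn libraries gave 0.421 and 0.430. Both lithium libraries lay below all others, and CaP Zn0.8Mn replicate 1 was the one library in which Gsk3b exceeded Gsk3a in FPKM. By counts, without regard to length, Gsk3b exceeded Gsk3a in every library. The ratio is not separate from the Gsk3a values, which lay above the other libraries as for 6.37% of genes. How often ratios of other gene pairs separate in this way was not tested. On the log2 scale the mean ratio was -1.44 on CaP Zn0.8Mn0.1Li and -0.89 in the other 4 libraries, a difference of -0.55 (two-sided exact permutation p = 0.133, the smallest that 15 regroupings allow). Without CaP Zn0.8Mn replicate 1 the difference was -0.21 (two-sided exact permutation p = 0.2, again the smallest possible), so the design cannot reach 0.05 with either set. Gsk3a supplied 73.0% and 73.1% of the summed kinase FPKM on CaP Zn0.8Mn0.1Li, 47.6% and 70.1% on CaP Zn0.8Mn, whereas its share on CaP Zn was 70.4% and 69.9%. The summed level was 36.2 and 34.0 FPKM on CaP Zn0.8Mn0.1Li, 27.4 and 32.5 FPKM on CaP Zn0.8Mn, and 33.6 and 33.7 FPKM on CaP Zn, with the lithium libraries above the rest by less than they differed from each other.

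**Figure D3:**
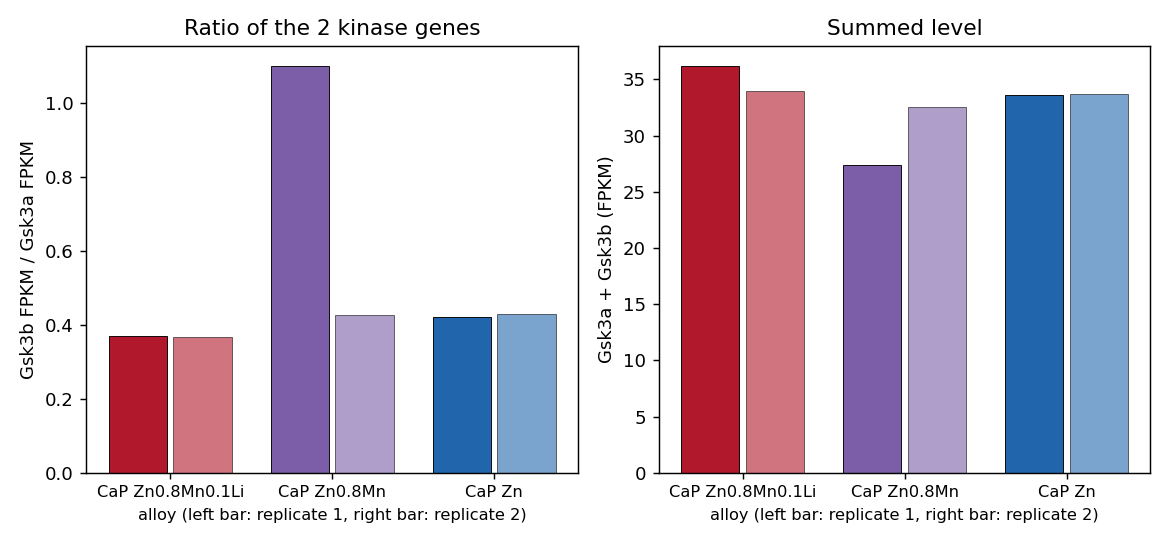
Ratio of Gsk3b to Gsk3a FPKM (left) and their summed FPKM (right) in each library, with the left bar of each pair for replicate 1 and the right bar for replicate 2. The ratio is 0.370 and 0.368 on CaP Zn0.8Mn0.1Li, 0.421 to 0.430 in the CaP Zn libraries and CaP Zn0.8Mn replicate 2, and 1.10 in CaP Zn0.8Mn replicate 1.

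Ctnnb1 (ENSMUSG00000006932, chromosome 9, 120929216 to 120960507, plus strand) encodes beta-catenin, the GSK3 substrate that carries the Wnt signal to the nucleus. Levels were 179 and 201 CPM on CaP Zn0.8Mn0.1Li, 390 and 182 CPM on CaP Zn0.8Mn, and 181 and 182 CPM on CaP Zn. Apart from CaP Zn0.8Mn replicate 1 all libraries lay close together, and the lithium libraries overlapped the rest. Against the mean of the other alloys the log2 fold change was -0.26 (SE 0.32, edgeR adjusted p = 0.935), and its sign turned to 0.06 (SE 0.08, edgeR adjusted p = 0.998) without CaP Zn0.8Mn replicate 1. Ulk4, on the opposite strand with 20 to 96 counts, overlaps 14.6% of the Ctnnb1 exon bases.

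Frat1 and Frat2, neighbours on chromosome 19, encode GSK3-binding proteins that can displace axin from the kinase. Frat1 (ENSMUSG00000067199, 41829970 to 41832583, plus strand) had 4 and 4 counts on CaP Zn0.8Mn0.1Li, 68 and 17 counts on CaP Zn0.8Mn, and 14 and 6 counts on CaP Zn. As levels these were 0.241 and 0.244 CPM on CaP Zn0.8Mn0.1Li, 4.49 and 1.10 CPM on CaP Zn0.8Mn, and 0.752 and 0.383 CPM on CaP Zn. Both lithium libraries lay below all 4 others, as they did for 898 genes (6.83%), but they stood only 1 count above the limit that a count of 0 allows. Its log2 fold change was -2.35 against the mean of the other alloys (SE 0.82, 95% interval -4.41 to -0.29, unadjusted p = 0.0321, edgeR adjusted p = 0.935), -3.48 against CaP Zn0.8Mn (SE 0.88, edgeR adjusted p = 0.680) and -1.21 against CaP Zn (SE 0.92, edgeR adjusted p = 1.00). Without CaP Zn0.8Mn replicate 1 the 3 values were -1.68 (SE 0.63), -2.14 (SE 0.75) and -1.23 (SE 0.70), with edgeR adjusted p from 0.981 to 1.00. This was the largest difference in size among the 9 members in each comparison, from the gene with the fewest counts.

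Frat2 (ENSMUSG00000047604, 41845972 to 41848132, minus strand) was the more abundant FRAT gene in 5 libraries. It had 6.39 and 8.43 CPM on CaP Zn0.8Mn0.1Li, 2.51 and 6.97 CPM on CaP Zn0.8Mn, and 6.12 and 8.37 CPM on CaP Zn. The lithium libraries overlapped the others, with CaP Zn0.8Mn replicate 1 lowest, and the log2 fold change against the mean of the other alloys was 0.34 (SE 0.45, edgeR adjusted p = 0.935), or 0.06 (SE 0.21, edgeR adjusted p = 0.998) without it. In CaP Zn0.8Mn replicate 1 the order of the genes was the reverse, with 1.13 FPKM for Frat2 and 1.67 FPKM for Frat1. The 2 genes share 71 windows of 50 identical bases, taken at every base so that neighbouring windows overlap. They are 2.77% of the windows in Frat1 and 3.36% of those in Frat2, so a small part of the reads could be assigned to either gene.

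Impa1 and Impa2 encode inositol monophosphatases, which release free inositol in the step classically linked to lithium. Impa1 (ENSMUSG00000027531, chromosome 3, 10311956 to 10331439, minus strand) was at 46.6 and 51.4 CPM on CaP Zn0.8Mn0.1Li, 43.5 and 51.3 CPM on CaP Zn0.8Mn, and 50.9 and 46.4 CPM on CaP Zn, and all 3 groups overlapped. Its log2 fold change was 0.03 against the mean of the others (SE 0.16, edgeR adjusted p = 0.966), a fold between 0.774 and 1.35 at 95%, and -0.03 (SE 0.09, edgeR adjusted p = 0.998) without CaP Zn0.8Mn replicate 1, a fold between 0.855 and 1.12. A log2 change of 1 in either direction thus lay outside both intervals.

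Impa2 (ENSMUSG00000024525, chromosome 18, 67289253 to 67319146, plus strand) was at 60.5 and 66.1 CPM on CaP Zn0.8Mn0.1Li, 33.1 and 65.3 CPM on CaP Zn0.8Mn, and 58.5 and 58.4 CPM on CaP Zn. Here too the lithium libraries overlapped the rest, through CaP Zn0.8Mn replicate 2. The log2 fold change against the mean of the other alloys was 0.24 (SE 0.29, edgeR adjusted p = 0.935), and 0.03 (SE 0.08, edgeR adjusted p = 0.998) without CaP Zn0.8Mn replicate 1. The opposite-strand transcript B430212C06Rik, with 2 to 14 counts, covers 23.6% of the exon bases. The CPM ratio of Impa2 to Impa1 was 1.30 and 1.29 on CaP Zn0.8Mn0.1Li, 0.762 and 1.27 on CaP Zn0.8Mn, with 1.15 and 1.26 on CaP Zn, a description within libraries that takes no account of gene length.

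Inpp1 (ENSMUSG00000026102, chromosome 1, 52785427 to 52817688, minus strand) encodes inositol polyphosphate 1-phosphatase, which acts upstream of the monophosphatases. It was at 9.17 and 7.88 CPM on CaP Zn0.8Mn0.1Li, 16.2 and 10.1 CPM on CaP Zn0.8Mn, and 12.7 and 9.39 CPM on CaP Zn. Both lithium libraries lay below all 4 others, as they did for 6.83% of genes, the closest being CaP Zn replicate 2. The log2 fold change was -0.50 against the mean of the others (SE 0.29, edgeR adjusted p = 0.935) and -0.31 without CaP Zn0.8Mn replicate 1 (SE 0.18, edgeR adjusted p = 0.998). Against CaP Zn alone it was -0.37 (SE 0.33, edgeR adjusted p = 1.00).

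Bpnt1 (ENSMUSG00000026617, chromosome 1, 185332149 to 185357777, plus strand) encodes the bisphosphate nucleotidase that breaks down phosphoadenosine phosphate, the by-product of sulfation. Its level was 26.5 and 26.4 CPM on CaP Zn0.8Mn0.1Li, 13.3 and 27.1 CPM on CaP Zn0.8Mn, and 27.7 and 24.7 CPM on CaP Zn. The lithium libraries lay within the range of the CaP Zn pair, and the one low library was CaP Zn0.8Mn replicate 1. The log2 fold change against the mean of the others was 0.20 (SE 0.30, edgeR adjusted p = 0.935), and -0.01 (SE 0.11, edgeR adjusted p = 0.998) without that library. The 4 phosphatase genes together came to 143 and 152 CPM on CaP Zn0.8Mn0.1Li, 106 and 154 CPM on CaP Zn0.8Mn, and 150 and 139 CPM on CaP Zn, with all groups overlapping.

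Split by reference alloy, the members' differences were wider against CaP Zn0.8Mn than against CaP Zn, as were those of all genes. Against CaP Zn0.8Mn the median size of the log2 difference was 0.51 over the members and 0.35 over all genes tested. Against CaP Zn it was 0.09 and 0.10. Without CaP Zn0.8Mn replicate 1 it was 0.07 and 0.11 against CaP Zn0.8Mn. Against CaP Zn0.8Mn the log2 fold changes were 0.51 for Gsk3a (SE 0.28), -0.36 for Gsk3b (SE 0.24), -0.59 for Ctnnb1 (SE 0.37), 0.64 for Frat2 (SE 0.53), 0.05 for Impa1 (SE 0.19), 0.36 for Impa2 (SE 0.33), -0.62 for Inpp1 (SE 0.33) and 0.39 for Bpnt1 (SE 0.35). The edgeR adjusted p was 0.680 for each of these except Impa1, where it was 0.900. Without CaP Zn0.8Mn replicate 1 the same comparison gave 0.17 for Gsk3a, -0.03 for Gsk3b, 0.06 for Ctnnb1, 0.09 for Frat2, -0.07 for Impa1, -0.05 for Impa2, -0.24 for Inpp1 and -0.03 for Bpnt1, all at an edgeR adjusted p of 1.00. Signs thus differed once the comparison rested on CaP Zn0.8Mn replicate 2 alone, for Ctnnb1, Impa1, Impa2 and Bpnt1.

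Against CaP Zn, whose libraries do not include the outlying one, the log2 fold changes were 0.12 for Gsk3a, -0.09 for Gsk3b, 0.07 for Ctnnb1, 0.03 for Frat2, 0.01 for Impa1, 0.11 for Impa2 and 0.01 for Bpnt1, beside -0.37 for Inpp1 and the value of Frat1 above. The SE ran from 0.19 for Impa1 to 0.53 for Frat2 among these 8, because all 6 libraries share 1 estimate of the spread. When CaP Zn0.8Mn replicate 1 was left out of that estimate the SE was 0.09 for Gsk3a, 0.08 for Gsk3b, 0.08 for Ctnnb1 and 0.10 for Impa1, and every one of the 9 members stayed above an edgeR adjusted p of 0.967. The 95% intervals of the fold were then 0.953 to 1.23 for Gsk3a, 0.926 to 1.18 for Ctnnb1, 0.870 to 1.17 for Impa1, 0.947 to 1.24 for Impa2, 0.845 to 1.20 for Bpnt1 and 0.577 to 1.03 for Inpp1. The median size of the log2 difference against CaP Zn was 0.09 over the 9 members, beside 0.10 over all genes tested, with all 6 libraries.

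Leaving out CaP Zn0.8Mn replicate 1 changed no call among the members, with 0 of 9 called in each comparison beside 0%, 0.0152% and 0% of genes. The share of genes at an unadjusted p under 0.05 was then 3.6%, 3.16% and 5.02%, and Frat1 was the 1 member among them in the comparisons with the mean and with CaP Zn0.8Mn (edgeR adjusted p = 0.998 and 1.00), with 0 against CaP Zn. Gsk3a still lay above, and Frat1 and Inpp1 below, all 3 remaining libraries of the other alloys, beside 9.29% of genes above and 9.7% below. Leaving out CaP Zn0.8Mn replicate 2 instead, so that replicate 1 stood alone for its alloy, called 8 of 9 members against the mean of the others, all but Impa1 (edgeR adjusted p = 0.485), beside 48% of genes. Against CaP Zn0.8Mn it called the same 8, Impa1 having an edgeR adjusted p of 0.254, beside 61.5% of genes, and against CaP Zn 0 members and 0% of genes. In that fit too the lone library was assumed to vary like the other groups.

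The most uneven values of the members thus came from 1 library. In CaP Zn0.8Mn replicate 1, Frat1 was at 8.26 times the mean of the other 5 libraries, Ctnnb1 at 2.11, Inpp1 at 1.64 and Gsk3b at 1.50 times. Impa1 was at 0.882, Gsk3a at 0.548, Impa2 at 0.536, Bpnt1 at 0.501 and Frat2 at 0.346 times that mean. All 9 lay outside the range of the other 5 libraries, as did 88.7% of the 7227 genes with at least 20 CPM on average in those 5. Of the 6 members with at least 20 CPM there, 2 were over 1.5-fold above and 3 over 1.5-fold below, beside 19.6% and 28.3% of 7227 genes. Across those genes the median log2 fold in that library was -0.74 for 1875 genes of up to 3000 bases, -0.19 for 1991 genes of over 3000 to 5000 bases, and 0.26 for 3361 longer genes. By the deposited lengths, Gsk3a (2900 bases), Impa2 (1661), Bpnt1 (2308) and Frat2 (2161) are in the shortest class and were low, and Gsk3b (9831), Ctnnb1 (5192) and Inpp1 (6460) are in the longest and were high. Frat1 (2614 bases, high) and Impa1 (5437 bases, low) went the other way. So would Impa2 if classed by its merged exons, which span 5367 bases. The part of gene length and of mitochondrial counts in these values was not tested. Over the other 5 libraries the highest CPM was 1.10 times the lowest for Gsk3b, 1.11 for Impa1, 1.12 for Ctnnb1 and Bpnt1, 1.13 for Impa2 and 1.16 for Gsk3a, against a median of 1.17 over the 7227 genes. For the scarcer genes it was 1.38 for Frat2, 1.61 for Inpp1 and 4.55 for Frat1.

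The pathway around the 9 genes was read through 12 lists holding 163 other genes, of which 117 passed the filter on low counts. None of the 117 was called in any of the 3 comparisons by edgeR at an adjusted p under 0.05, beside 0% of all genes. At an unadjusted p under 0.05 there were 0, 1 and 0, beside 0.54%, 2.4% and 0.22% of all genes. Their median log2 fold change was -0.11 against the mean of the other alloys and -0.0075 without CaP Zn0.8Mn replicate 1. Against the mean of the other alloys 44 of the 117 were higher with all 6 libraries, beside 50.2% of all genes tested. Counts of higher and lower genes below use all 6 libraries, unless given after the word then. Single genes below are given as log2 fold changes against the mean of the other alloys, first with all 6 libraries and then without CaP Zn0.8Mn replicate 1. For each of them the edgeR adjusted p was at least 0.935, and 0.998 without that library.

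In the beta-catenin destruction complex, 13 of 14 genes were tested, 3 higher and 10 lower (median -0.08, then -0.06 with 3 of 13 higher). Amer1, a membrane-recruiting partner of APC, had -1.35 and then -0.07, Apc -0.35 and then 0.01, and the kinase gene Csnk1e 0.20 and then -0.06. Axin2, a feedback inhibitor that serves widely as a readout of beta-catenin activity, had 0 counts in every library. Of the Wnt receptors and Dishevelled genes 9 of 18 were tested, 5 higher and 4 lower (median 0.04, then 0.07), with 0.58 and then 0.20 for the receptor gene Fzd5, -0.50 and then -0.20 for Fzd7 and 0.39 and then 0.09 for Dvl1. Among TCF/LEF factors and cofactors 10 of 15 were tested, 6 higher and 4 lower (median 0.06, then -0.01), with 0.37 and then 0.09 for the corepressor gene Aes and 0.34 and then 0.05 for Cby1.

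Bcl9l, which encodes a beta-catenin coactivator, was among them. It was at 3.50 and 4.15 CPM on CaP Zn0.8Mn0.1Li, 17.0 and 5.81 CPM on CaP Zn0.8Mn, and 5.69 and 6.13 CPM on CaP Zn. Both lithium libraries lay below the other 4, again as for 6.83% of genes, and the log2 fold change was -1.10 and then -0.61 (SE 0.22), neither of which passed the test (without the library, edgeR adjusted p = 0.998). Of 20 Wnt/beta-catenin target genes 5 were tested, 2 higher and 3 lower (median -0.05, then 0.02), with 0.76 and then 0.32 for Myc, 0.51 and then 0.13 for Fosl1 and -0.22 and then -0.11 for Znrf3.

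All 17 kinase genes upstream of GSK3 were tested, 4 higher and 13 lower (median -0.16, then -0.03 with 7 of 17 higher). The phosphoinositide kinase gene Pik3cg had -0.76 and then -0.07, Sgk3 -0.68 and then -0.04, and Rps6ka3 -0.48 and then -0.0047. Other GSK3 substrates had 16 of 17 tested, 4 higher and 12 lower (median -0.18, then -0.0082 with 6 of 16 higher). Mitf had -0.47 and then 0.04, while Jun had 0.47 and then 0.22 and Bcl3 0.44 and then 0.13.

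On the inositol side, 5 of 8 genes of inositol synthesis, uptake and phosphatidylinositol formation were tested, 5 higher and 0 lower, none of which passed the test (median 0.15, then 0.07 with 4 of 5 higher). Cdipt, the phosphatidylinositol synthase gene, had 0.19 and then 0.03, the inositol transporter gene Slc5a3 0.17 and then 0.13, and Cds1 0.15 and then 0.13. Of 26 inositol phosphate kinase and phosphatase genes 23 were tested, 6 higher and 17 lower (median -0.21, then -0.0075 with 11 of 23 higher). Ppip5k2 had -0.75 and then -0.08, Synj2 -0.44 and then -0.11, and Inpp5f -0.41 and then -0.01. Of 14 phospholipase C genes 8 were tested, 4 higher and 4 lower (median -0.08, then -0.03), with -0.57 and then -0.04 for Plcb4, -0.54 and then -0.18 for Plcl2 and -0.24 and then -0.09 for Plcg2.

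Among the other lithium-sensitive phosphatases Impad1 was the 1 of 3 genes tested, at -0.09 and then 0.06, while the fructose bisphosphatase genes Fbp1 and Fbp2 had at most 2 counts in a library. Of the genes that make or carry PAPS, the sulfate donor upstream of the BPNT1 substrate, 3 of 4 were tested, 2 higher and 1 lower (median 0.01, then -0.01), with -0.23 and then -0.12 for Slc35b2, 0.07 and then 0.03 for Slc35b3 and 0.01 and then -0.01 for Papss1. Of 10 sodium exchanger genes 7 were tested, 3 higher and 4 lower (median -0.16, then 0.11 with 6 of 7 higher). Whether each of their products carries lithium was not tested. Slc8a1 had -0.77 and then 0.11, Slc9a9 -0.72 and then -0.30, and Slc8b1, the mitochondrial sodium/lithium/calcium exchanger gene, 0.37 and then 0.14.

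**Figure D4:**
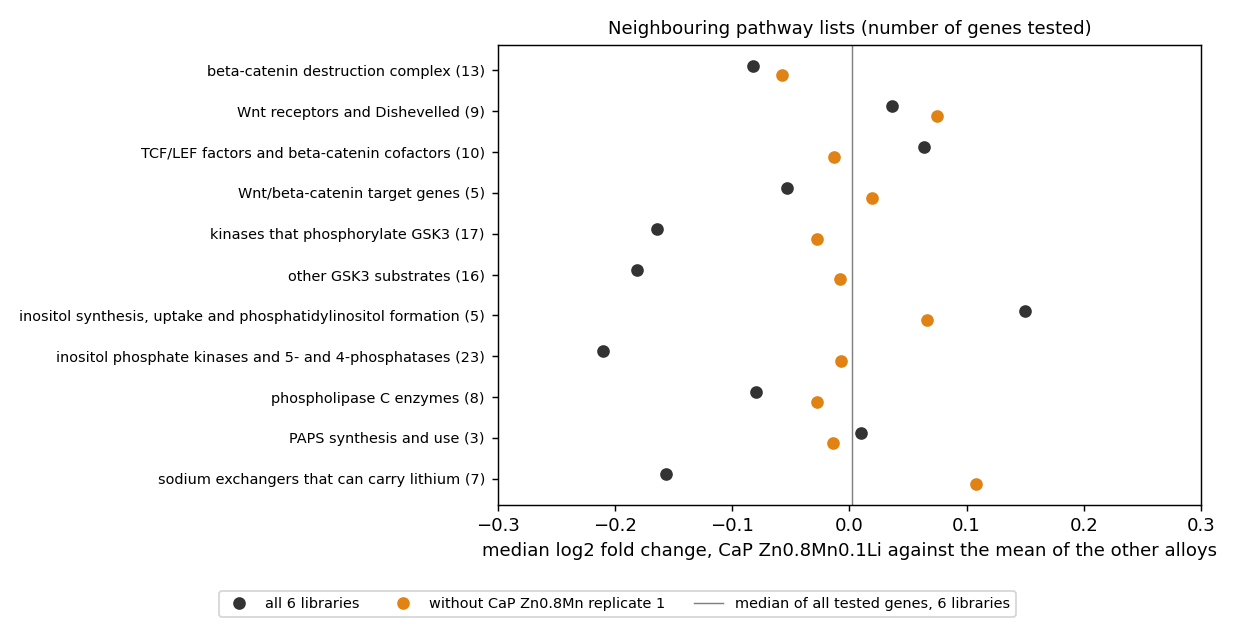
Median log2 fold change of the tested genes of 11 of the 12 pathway lists (the list with 1 tested gene is not drawn) in CaP Zn0.8Mn0.1Li against the mean of the other alloys (horizontal axis), with all 6 libraries (dark) and without CaP Zn0.8Mn replicate 1 (orange), and the number of genes tested in brackets. The vertical line is the median of all tested genes (0.0021), and the dark points run from -0.21 for inositol phosphate kinases and phosphatases to 0.15 for inositol synthesis, while the orange ones run from -0.06 to 0.11.

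For each member the gene with the most similar pattern over the 6 libraries was taken as the one with the smallest root mean square difference of centred log2 CPM among about 7298 genes of at least 20 CPM. The closest were Aktip for Gsk3a (0.038), Lrrc8d for Gsk3b (0.023), Tsc2 for Ctnnb1 (0.026), Repin1 for Frat2 (0.087), Idi1 for Impa1 (0.017), Pitpnm1 for Impa2 (0.024), Parp12 for Inpp1 (0.089) and Cetn3 for Bpnt1 (0.022). The nearest gene to Frat1, Gm28437, was far less close, at 0.37. The median difference over the genes searched was 0.24 for Impa1, 0.29 for Gsk3b and 1.22 for Frat1. In all 9 members CaP Zn0.8Mn replicate 1 was the extreme library, so these likenesses can rest largely on its level. It stood least apart for Impa1, at 0.882 times the mean of the other 5 libraries. How much of each likeness rests on that library was not tested.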

How the data were processed

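PolyA RNA from RAW264.7 cells was sequenced, per the labels, in 6 libraries, 2 for each of 3 alloys. The deposited table holds read counts per gene, not normalized, and FPKM computed by the authors from the gene lengths in the same table. The aligner and counter used are not stated. A build of mm9 appears in the submitters' processing notes, but 53499 of 54409 gene identifiers (98.3%) have the start and end of GRCm38 in GENCODE M21, so coordinates are given as GRCm38. Overlapping exons and shared 50-base windows were computed from the same annotation.

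Counts of 13156 genes kept by filterByExpr were scaled by TMM and tested with edgeR 4.0.16 (robust quasi-likelihood fit, limma 3.58.1, R 4.3.3) over all 6 libraries with 1 mean per alloy, two-sided, leaving 3 residual degrees of freedom. P-values were adjusted by the Benjamini-Hochberg method over all genes, with a threshold of 0.05. Intervals are the log2 fold change plus or minus t times the standard error, at 95%. The kinase ratio was tested by an exact permutation test over libraries. The limit of 3 counts covers counting error only.

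The 9 members and all lists were chosen with earlier results of these data known. Named are all 9 members and, in each list, the 3 tested genes of at least 5 CPM on average with the largest change against the mean of the other alloys. Bcl9l was described further after its values were seen. Alternatives were another scaling, no filter or a stricter filter, DESeq2 1.42.0, limma-voom, log2 of FPKM with 1 or 0.1 added, a replicate block and leaving out each library.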

Additional observations from a re-analysis of the deposited data

How the results depend on the processing

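No member was called in any comparison under RLE scaling, library totals only, no filter, a mean count of at least 100, DESeq2, limma-voom with or without quality weights, log2(FPKM + 1) or log2(FPKM + 0.1). Alternatives for the pathway genes and list medians were chosen after seeing the data. With the replicate block 0 members and 0 genes were called in each comparison. Deviations of libraries with the same replicate number had correlations of -0.0932, -0.161 and 0.260 between alloys. With 2 libraries per alloy these cannot decide whether the replicate numbers pair the libraries. Genes called against the mean of the other alloys were 1 with DESeq2 and 3 with DESeq2 without CaP Zn0.8Mn replicate 1. Against CaP Zn0.8Mn they were 1 without a filter, 3 with DESeq2 and 3 with DESeq2 on 5 libraries, and against CaP Zn 12 with DESeq2 on 5 libraries. The members' median against CaP Zn0.8Mn was 0.20 with a mean count of at least 100, 0.24 for log2(FPKM + 1) and 0.26 for log2(FPKM + 0.1), filters that remove Frat1.

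With each library left out in turn, members called ranged from 0 to 8 against the mean of the other alloys and against CaP Zn0.8Mn, and genes called from 0 to 6311 and from 0 to 8096, the highest without CaP Zn0.8Mn replicate 2. The members' median ranged from -0.052 to 0.090 against the mean of the other alloys, from -0.035 to 0.17 against CaP Zn0.8Mn and from -0.05 to 0.06 against CaP Zn. The difference in the log2 kinase ratio ranged from -0.67 to -0.21.

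Signs turned in 19 single-gene values, all of fold changes that did not pass the test, and the cause was not tested. With DESeq2 on 5 libraries, against the mean of the other alloys, they were 0.063 for Ctnnb1, -0.027 for Impa1, -0.011 for Bpnt1, 0.012 for Apc, -0.058 for Csnk1e, 0.037 for Mitf, 0.065 for Impad1, -0.013 for Papss1 and 0.12 for Slc8a1. Against CaP Zn0.8Mn they were 0.059 for Ctnnb1, -0.066 for Impa1, -0.046 for Impa2 and -0.034 for Bpnt1. edgeR on the same 5 libraries, without CaP Zn0.8Mn replicate 1, gave the same sign for each of these. Against the mean of the other alloys it gave 0.062 for Ctnnb1 and -0.028 for Impa1. With library totals only, Papss1 was at -0.015 against the mean of the other alloys, and against CaP Zn Frat2 was at -0.00060, Impa1 at -0.033 and Bpnt1 at -0.033. Without a filter, Impa1 was at -0.0022 and Bpnt1 at -0.00023 against CaP Zn. Leaving out single libraries turned the sign of 19 results at least once. Against the mean of the other alloys the ranges were -0.60 to 0.011 for Apc, -0.011 to 0.50 for Bpnt1, -0.0014 to 0.27 for Cds1, -0.058 to 0.59 for Csnk1e, -0.49 to 0.062 for Ctnnb1, -0.052 to 0.090 for Impa1, -0.22 to 0.065 for Impad1, -0.77 to 0.037 for Mitf, -0.034 to 0.037 for Papss1, -0.022 to 0.17 for Slc35b3 and -1.18 to 0.11 for Slc8a1. Against CaP Zn0.8Mn they were -0.034 to 0.99 for Bpnt1, -1.04 to 0.059 for Ctnnb1, -0.066 to 0.17 for Impa1 and -0.045 to 0.93 for Impa2, and against CaP Zn -0.066 to 0.095 for Bpnt1, -0.030 to 0.14 for Ctnnb1, -0.19 to 0.28 for Frat2 and -0.071 to 0.078 for Impa1. Depth limits Frat1, whose CaP Zn0.8Mn0.1Li libraries had 4 counts each.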
